A study of Mus musculus with 2 samples.

Results

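The genes described here are 10 mouse hairpin genes whose microRNAs (miRNAs) are typical of muscle, liver, gut and endocrine cells, read out in brain tissue. They are Mir1a-1, Mir1a-2, Mir133a-1, Mir133b and Mir206 of muscle, Mir122 of liver, Mir192, Mir194-1 and Mir194-2 of gut and liver, and Mir375 of endocrine cells. They were taken by their GENCODE M21 gene names from the 2202 miRNA genes in the deposited counts, as miRNAs known from those organs, with no threshold on a measured value. The study sequenced miRNAs of total RNA, with a labelled size range under 30 for which the labels give no unit, from a tissue that the labels call layer of hippocampus. The tissue came from female mice of the hybrid strain B6CASTF1/J, aged 18 to 20 months, with no treatment given in the labels. The 2 libraries carry the biological replicate numbers 2 and 1 and form 1 group, so the only comparison is between the libraries. The labels give them different animal numbers but the same donor record, so differences between the libraries may be technical. The sense counts of all miRNA genes came to 4521208 in replicate 2 and 2255838 in replicate 1. Levels are given in CPM, the count scaled by those sums, and each has an exact Poisson interval (95%), which covers counting error only. For a gene without a count the limit, set at 3 counts, was 0.664 CPM in replicate 2, against 1.33 CPM in replicate 1. The exact Poisson interval of a count of 0 reaches higher, to 0.816 CPM in replicate 2 and 1.64 CPM in replicate 1.

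A miRNA is cut from a hairpin transcript, and either arm of the hairpin can become the mature RNA. The mature RNA guides a silencing complex to messenger RNAs that pair with its seed, bases 2 to 8 from its 5′ end, so miRNAs with the same seed share many targets. The muscle miRNAs act in the growth and differentiation of heart and skeletal muscle. Mir122 is the main miRNA of hepatocytes, the Mir192 and Mir194 hairpins are prominent in intestine, liver and kidney, and Mir375 restrains insulin secretion in pancreatic islets and is made in other endocrine cells such as those of the pituitary.

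The deposited files set reads that fit several genomic places apart from the gene counts, so sequences that the genes share are given here. Mature sequences are from RefSeq (build GRCm38.p6), and those of 7 of the 10 genes were used. Those of Mir122, Mir133a-1 and Mir1a-2 were left out, which does not mean that RefSeq lacks them. For Mir375 only the 5′ arm was found in RefSeq, so its 3′ arm and the seed of that arm are not shown. In the sequences below the seed is in capitals. The first is from the muscle hairpin that had counts (chr1:20679055-20679076, plus strand), the second from its neighbour without counts (chr1:20682834-20682855, plus strand).
mmu-miR-206-3p: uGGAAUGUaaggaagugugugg
mmu-miR-133b-3p: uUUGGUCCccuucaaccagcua
The next are the 5′ arm of Mir375 (chr1:74900696-74900717, minus strand), that of Mir192 (chr19:6264857-6264877, plus strand), and that of the related gene Mir215 (chr1:185313610-185313630, plus strand), which has the seed of mmu-miR-192-5p.
mmu-miR-375-5p: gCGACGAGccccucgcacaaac
mmu-miR-192-5p: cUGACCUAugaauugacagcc
mmu-miR-215-5p: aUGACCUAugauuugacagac
The last 2 mature RNAs match over 18 of 21 bases, and counted from the 5′ end of mmu-miR-192-5p they differ by C1A, A12U and C20A. The hairpins of Mir194-1 (chr1:185313319-185313385, plus strand) and Mir194-2 (chr19:6264643-6264728, plus strand) are shown whole, with capitals for the longest stretch of bases they share.
Mir194-1: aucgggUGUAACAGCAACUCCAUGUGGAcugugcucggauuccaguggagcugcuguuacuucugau
Mir194-2: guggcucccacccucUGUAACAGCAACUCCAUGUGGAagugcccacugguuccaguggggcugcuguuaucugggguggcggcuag
That stretch of 22 bases is the whole mature RNA mmu-miR-194-5p, so a read of exactly that RNA fits both genes. The 3′ arms can be told apart: over 22 bases, counted from the 5′ end of mmu-miR-194-1-3p, mmu-miR-194-2-3p differs by A8G, C19U, U20C and C22G.

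Of the 10 genes, 5 had counts and 5 had no sense count in either library. Positions of hairpins are those of GENCODE M21 on mm10. Mir375, Mir122, Mir194-2, Mir192 and Mir206 were each above 10 CPM in both libraries, whereas Mir1a-1, Mir1a-2, Mir133a-1, Mir133b and Mir194-1 were at 0. Of the 2202 genes, 1468 (66.7%) had no count in either library, while 446 (20.3%) were at or above 1 CPM in each. The 10 genes together held 1909 counts in replicate 2, or 422 CPM (404 to 442), against 1565 counts in replicate 1, or 694 CPM (660 to 729), which is 0.0422% and 0.0694% of the counts. Their summed level was 558 ± 192 CPM (SD, n = 2). Most of that was Mir375, with 73.0% of the summed counts in replicate 2 (exact binomial 95% interval 71.0 to 75.0) and 88.4% in replicate 1 (86.7 to 89.9). The other 9 genes summed to 114 CPM in replicate 2, against 80.7 CPM in replicate 1. In bulk tissue, fewer cells of a type and less RNA per cell cannot be told apart.

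**Figure D1:**
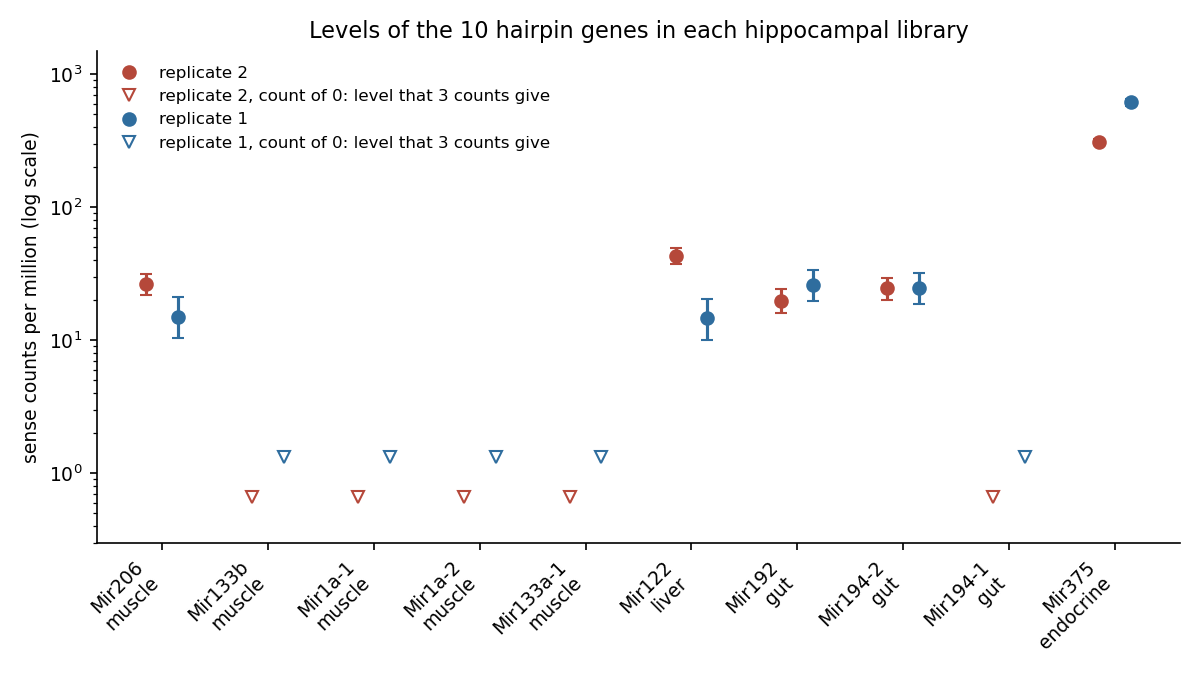
Level of each of the 10 hairpin genes (vertical axis, CPM from sense counts, log scale) in replicate 2 and replicate 1, with exact 95% Poisson intervals as bars; open triangles mark counts of 0, drawn at the level that 3 counts give. Mir375 stood at 308 and 613 CPM, Mir206, Mir122, Mir192 and Mir194-2 lay between 14.6 and 43.1 CPM, and 5 genes had no count.

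In this list, as over all genes, hairpins with a shared stretch more often had no count. A stretch of 20 bases or more in common with another miRNA hairpin, on either strand, was found in 6 of the 10 genes, and 5 of these 6 had no count; the exception was Mir194-2. The other 4, Mir206, Mir122, Mir375 and Mir192, shared at most 13 bases with any other hairpin, and all 4 had counts. Over all genes, 974 of 1133 hairpins with such a stretch (86.0%) had no count, against 494 of 1069 hairpins without one (46.2%). Hairpins that overlap on opposite strands, such as Mir1a-2 and Mir1b, also counted as sharing a stretch. For each counted read, replicate 2 had 1.29 reads that fit several places, and replicate 1 had 1.20. A level of 0 for a gene with a shared stretch describes reads counted there and does not by itself give the amount of its mature RNA. Some mature RNAs examined for the genes at 0 were whole in 1 hairpin only. These were both of Mir133b, the 5′ arm of Mir1a-1 and mmu-miR-194-1-3p. The mature RNAs of Mir1a-2 and Mir133a-1 and the 3′ arm of Mir1a-1 were not examined. Mir133b still shares a stretch of 21 bases with both Mir133a-1 and Mir133a-2. Whether reads of the genes at 0 were among those that fit several places was not tested.

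Replicate 2 was set against replicate 1 for the 495 genes whose mean level was at least 1 CPM. Each gene's counts went into an exact binomial test, two-sided and conditional on their sum, with Benjamini-Hochberg adjustment over all 495. A gene was called at an adjusted p under 0.05 and a ratio of 2-fold or more. Of the 5 genes tested here, 1 was called, namely Mir122, which was higher in replicate 2; over all genes 17.6% were called, and 3.84% were called higher in replicate 2. By size alone, 1 of the 5 reached 2-fold, against 25.9% of all tested genes. By the adjusted p alone, 3 of the 5 passed (Mir122, Mir206 and Mir375), against 53.5% of all tested genes. The median log2 ratio was -0.02 over the 5 genes and -0.19 over all 495. With edgeR's TMM factors, which raise every log2 ratio of replicate 2 over replicate 1 by 0.12, the split of all called genes was 26 higher and 51 lower in replicate 2. It was 27 and 48 with DESeq2 size factors (a shift of 0.19), 33 and 30 with all reads as the library size (a shift of 0.30), and 19 and 68 as tested. The binomial p-values cover counting error only, with no spread between samples, and compare these libraries only. A test on the scatter between the libraries was also run. Its error includes the differences under test, so a gene that did not pass it was not shown to be alike in both. With an error taken from the libraries' own scatter over the tested genes, a coefficient of variation of 39.0%, in exactTest of edgeR, 3 of 495 genes passed at an adjusted p under 0.05, none of them among the 10, and 22 passed at an unadjusted p under 0.05.

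**Figure D2:**
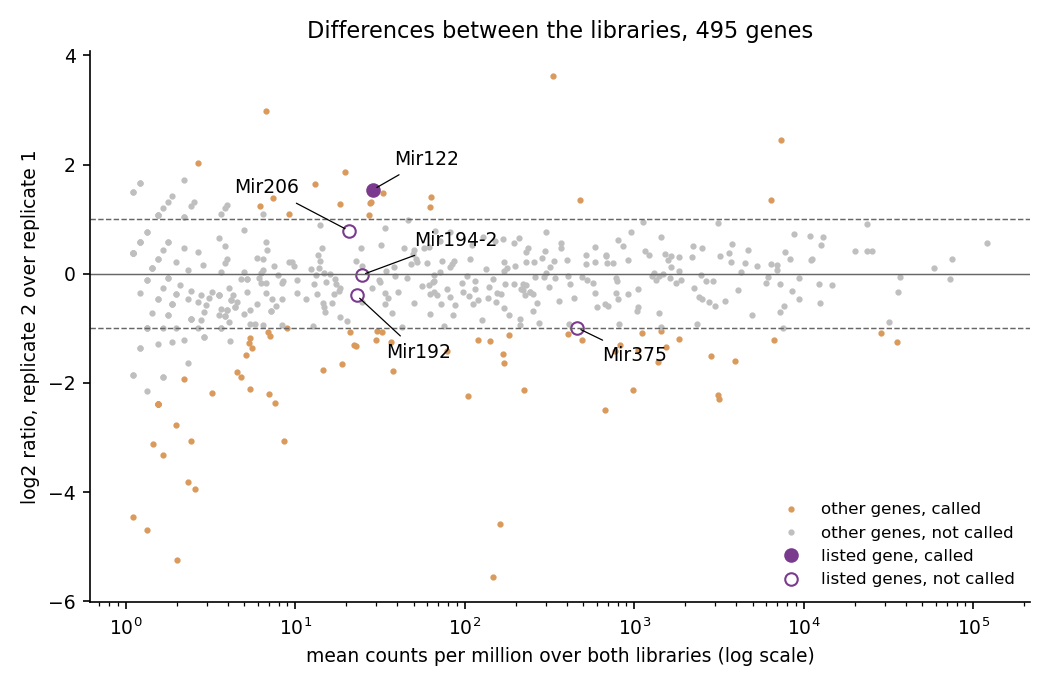
Log2 ratio of replicate 2 over replicate 1 (vertical axis) against the mean level over both libraries (horizontal axis, CPM, log scale) for 495 genes; dashed lines mark 2-fold. Mir122, at 1.54, is the only listed gene outside the lines, Mir375 lies on the lower line at -0.99, and Mir206, Mir192 and Mir194-2 lie between them.

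Among the muscle genes, the counts were those of Mir206, a skeletal muscle miRNA of the same seed family as Mir1a-1 and Mir1a-2. Mir206 (chromosome 1, 20679010 to 20679082, plus strand) had 119 counts in replicate 2, or 26.3 CPM (21.8 to 31.5), against 34 counts in replicate 1, or 15.1 CPM (10.4 to 21.1). The Poisson intervals did not overlap, and replicate 2 was the higher library, 1.75-fold (exact 95% interval 1.18 to 2.64; adjusted p = 0.00751, exact binomial test). On the scatter between libraries, exactTest from edgeR gave p = 0.313 and an adjusted p of 1. Mir133b (chromosome 1, 20682769 to 20682887, plus strand), whose miRNA acts with Mir206 in muscle, begins 3759 bases after Mir206 and had 0 counts in both libraries. Both hairpins overlap an exon of the same long noncoding gene, Gm28653, on the same strand. Mir133b shares a stretch of 21 bases with both Mir133a-1 and Mir133a-2, and Mir206 shares at most 13 bases with another hairpin.

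Mir1a-1, Mir1a-2 and Mir133a-1, the muscle hairpins that also act in heart, had no sense count. Mir1a-1 lies on the plus strand of chromosome 2, at 180389048 to 180389124, with Mir133a-2 as its neighbour at a distance of 9331 bases between starts. Mir133a-1 (10782909 to 10782976) and Mir1a-2 (10785481 to 10785552) lie on the minus strand of chromosome 18, in an intron of the noncoding host gene Mir133a-1hg and, on the other strand, of Mib1. All 4 of these hairpins, Mir133a-2 included, had 0 counts in both libraries. Mir1a-1 shares 28 bases with Mir1a-2, and Mir133a-1 shares 31 with Mir133a-2, so reads of those stretches fit both copies. On the strand opposite to Mir1a-2 there were 12 counts in replicate 2 and 8 counts in replicate 1. Mir1b, a hairpin annotated on that opposite strand that covers all 72 bases of Mir1a-2, had the same 12 and 8 as its sense counts, or 2.65 CPM (1.37 to 4.64) and 3.55 CPM (1.53 to 6.99). In the unstranded column both genes had 0 counts.

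Mir122, the liver gene, differed most between the libraries of the 5 genes with counts. It lies on the plus strand of chromosome 18, at 65248861 to 65248926, in an exon of the long noncoding gene AC157910.3 on the same strand. It had 195 counts in replicate 2, or 43.1 CPM (37.3 to 49.6), against 33 counts in replicate 1, or 14.6 CPM (10.1 to 20.5). Replicate 2 was 2.95-fold higher (exact 95% interval 2.03 to 4.40; adjusted p = 4.92e-10, exact binomial test). The log2 ratio of Mir122 was 1.54, and 51 of the 495 tested genes (10.3%) had a larger change in either direction. On the scatter between libraries, exactTest from edgeR gave p = 0.0612 and an adjusted p of 1. Mir122 is known as a miRNA that also circulates in blood plasma, so the blood markers are given beside it. All 5 blood markers had counts, and they summed to 904 CPM in replicate 2, against 974 CPM in replicate 1. Mir144, an erythroid miRNA, was at 48.9 CPM in replicate 2, against 17.3 CPM in replicate 1, and was the only one of the 5 that was called. Mir451a, made from the same erythroid transcript, was at 71.0 CPM in replicate 2, against 105 CPM in replicate 1. The leukocyte miRNAs Mir150 and Mir223 were at 752 and 15.3 CPM in replicate 2 and at 823 and 12.9 CPM in replicate 1. Mir486 was at 15.9 CPM in replicate 2, against 16.0 CPM in replicate 1. The part of blood in the Mir122 level was not tested.

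The gut genes Mir192 and Mir194-2 had like levels in both libraries. They lie on the plus strand of chromosome 19, Mir194-2 at 6264643 to 6264728 and Mir192 at 6264844 to 6264932, with 115 bases between them, and no other annotated gene overlaps either. Mir194-2 had 111 counts in replicate 2, or 24.6 CPM (20.2 to 29.6), against 56 counts in replicate 1, or 24.8 CPM (18.8 to 32.2). Mir192 had 90 counts in replicate 2, or 19.9 CPM (16.0 to 24.5), against 59 counts in replicate 1, or 26.2 CPM (19.9 to 33.7). For both genes the Poisson intervals of the libraries overlapped. The ratio of replicate 2 over replicate 1 was 0.989 for Mir194-2 (exact 95% interval 0.711 to 1.39; adjusted p = 0.987, exact binomial test) and 0.761 for Mir192 (0.542 to 1.08; adjusted p = 0.19). Those intervals still allow differences of up to 1.41-fold and 1.84-fold lower in replicate 2. Mir192 had 0.811 counts per count of Mir194-2 in replicate 2 (0.607 to 1.08) and 1.05 in replicate 1 (0.718 to 1.55), and Fisher's exact test on the 4 counts gave p = 0.293, two-sided. Mir194-2 was the only listed gene with both counts and a shared stretch. Which arm its counts came from cannot be told from the files, since a count belongs to a hairpin.

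Mir194-1, the other copy of the gut miRNA, had 0 sense counts in both libraries. It lies on chromosome 1, at 185313319 to 185313385, within an intron of 2010103J01Rik, a noncoding gene on the same strand, and on the other strand in an intron of Iars2, which encodes a mitochondrial isoleucyl-tRNA synthetase. Its antisense column held 3 counts in replicate 2 and 0 in replicate 1. Mir215, whose hairpin starts 262 bases after that of Mir194-1, had 5 counts in replicate 2, or 1.11 CPM (0.359 to 2.58), and 1 count in replicate 1, or 0.443 CPM (0.0112 to 2.47). The intervals overlapped, and no difference between the libraries was detectable for Mir215 at this depth. Each hairpin of the chromosome 19 pair was thus at 19.9 CPM or more in both libraries, and neither hairpin of the chromosome 1 pair was above 1.11 CPM. Between Mir194-2 and Mir194-1 that contrast covers counted reads only, because a read of exactly mmu-miR-194-5p fits both hairpins.

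Mir375 was the most abundant of the 10 genes and the one with the firmest counts. It lies on the minus strand of chromosome 1, at 74900658 to 74900721, with no other annotated gene over it. It had 1394 counts in replicate 2, or 308 CPM (292 to 325), against 1383 counts in replicate 1, or 613 CPM (581 to 646). The intervals did not overlap, and replicate 2 was 1.99-fold lower (exact 95% interval 1.84 to 2.14; adjusted p = 4.97e-71, exact binomial test), just inside the limit of 2-fold. Of the tested genes, 25.9% had a larger change in either direction than Mir375. On the scatter between libraries, exactTest from edgeR gave p = 0.278 and an adjusted p of 1.

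Several epithelial miRNAs were called lower in replicate 2, where Mir375 was also at its lower level. All 13 markers of choroid plexus and epithelium had counts, and they summed to 1612 CPM in replicate 2, against 3607 CPM in replicate 1. Of that difference Mir34c, a miRNA of ciliated cells, made up the most, with 366 CPM in replicate 2, against 1597 CPM in replicate 1. Without Mir34c the sums were 1247 CPM in replicate 2 and 2010 CPM in replicate 1. Of the 13, 7 were called lower in replicate 2, against 13.7% of all tested genes, and 0 were called higher. The list was chosen with earlier results of these data known, and some of its genes share a cluster. The calls are therefore not independent of each other, and the excess over all genes is descriptive only. The number called lower was 6 with TMM factors, 5 with DESeq2 size factors and 4 with all reads as the library size, and none passed exactTest from edgeR (lowest adjusted p = 0.484, for Mir200c). Levels were lower in replicate 2 for 11 of the 13 markers, and higher for Mir200b and Mir449a. Mir204, the highest of the list in replicate 2, was at 800 CPM there, against 1034 CPM in replicate 1, and was not called. In that list, Mir183 and Mir182, which are made from 1 cluster and known from sensory cells, were at 83.8 and 51.1 CPM in replicate 2 and at 198 and 99.7 CPM in replicate 1. The epithelial miRNA Mir429 was at 82.7 CPM in replicate 2, against 257 CPM in replicate 1, whereas Mir200b, of the same cluster, was at 85.4 CPM in replicate 2, against 78.5 CPM in replicate 1. No marker of that list was at 0 in either library. The part of such cells in the Mir375 level was not tested.

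Mir375 led in both libraries, but the order of the other 4 genes turned round. In replicate 2 it ran Mir122, Mir206, Mir194-2 and Mir192, from 43.1 to 19.9 CPM, and in replicate 1 it ran Mir192, Mir194-2, Mir206 and Mir122, from 26.2 to 14.6 CPM. Within each library the Poisson intervals of adjacent genes overlapped, except those of Mir122 and Mir206 in replicate 2. A full reversal was therefore not shown beyond counting error. By mean level, Mir375 was at 461 ± 215 CPM (SD, n = 2), Mir122 at 28.9 ± 20.2 CPM, Mir194-2 at 24.7 ± 0.193 CPM, Mir192 at 23.0 ± 4.42 CPM and Mir206 at 20.7 ± 7.95 CPM. No neighbours among the last 4 differed beyond the spread between the libraries, because the ranges overlapped for each neighbouring pair. Mir375 stood above all 4 in both libraries. Among the 734 genes with a count, Mir375 had rank 128 by mean level, and Mir122, Mir194-2, Mir192 and Mir206 had ranks 263, 270, 273 and 278.

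**Figure D3:**
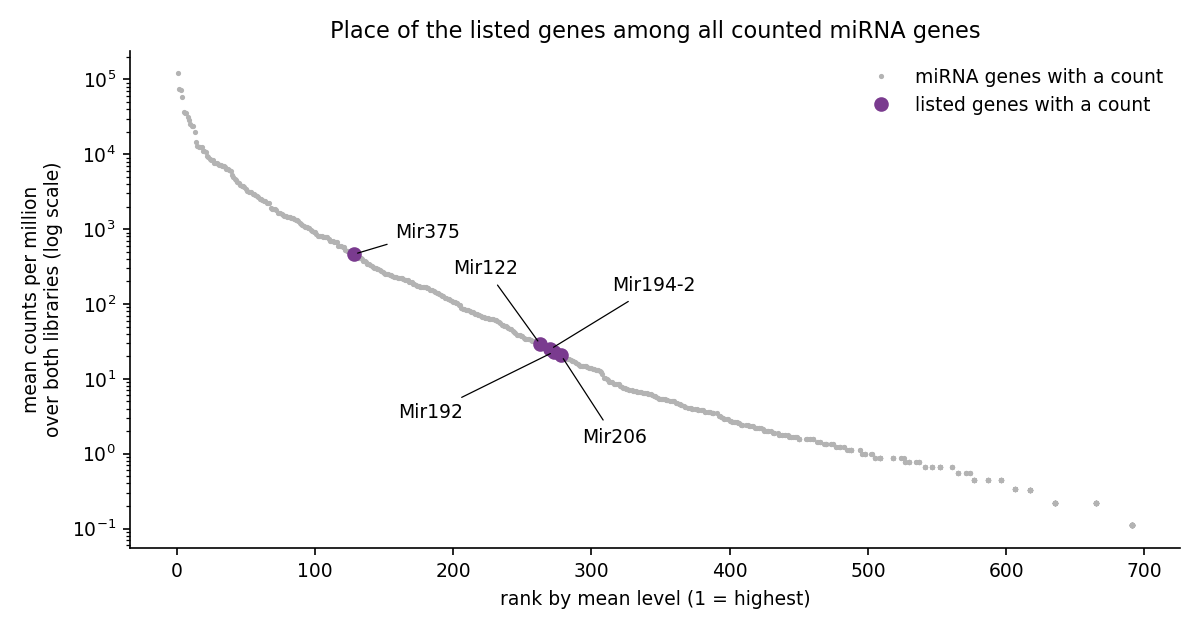
Mean level over both libraries (vertical axis, CPM, log scale) against rank (horizontal axis) for the 734 miRNA genes with a count; each point is a gene. Mir375 lies at rank 128, and Mir122, Mir194-2, Mir192 and Mir206 lie together between ranks 263 and 278.

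The genes nearest to each were found by the distance between log2(CPM + 1) values over both libraries, which describes level more than pattern with so few libraries. Mir375 lay nearest to Mir501 (295 CPM in replicate 2, against 686 CPM in replicate 1) and Mir212 (286 and 543 CPM), at distances of 0.17 and 0.21. Mir122 lay nearest to Mir504 (40.0 and 16.0 CPM) and Mir10a (39.4 and 16.0 CPM), at 0.16 and 0.17. Mir206 lay farther from its nearest genes, Mir679 (28.3 and 20.4 CPM) and Mir18 (24.8 and 20.8 CPM), at 0.42 and 0.45. Mir192 lay nearest to Mir6516 (20.3 and 29.3 CPM), at 0.16, and second to its cluster partner Mir194-2, at 0.30. Mir194-2 lay nearest to Mir6769b (25.4 and 24.4 CPM) and Mir362 (25.9 and 23.5 CPM), at 0.06 and 0.11.

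Apart from the Mir7 genes and Mir486, the related miRNAs of the same organs were at 7.54 CPM or less. They were thus below the 5 listed genes with counts in both libraries. Of 14 related genes, 12 had a count, 7 reached 1 CPM in both libraries and 7 were tested. None of the 7 was called, against 17.6% of all tested genes, and their median log2 ratio was -0.34, against -0.19 over all tested genes. In muscle, Mir499, carried in a myosin gene, had 27 counts in replicate 2, or 5.97 CPM (3.94 to 8.69), against 17 counts in replicate 1, or 7.54 CPM (4.39 to 12.1). The heart miRNAs Mir208a and Mir208b had 4 and 0 counts in replicate 2, and 2 and 3 counts in replicate 1. Mir486, of muscle and red blood cells, was the highest of the 6 related muscle genes, with 72 counts in replicate 2 and 36 in replicate 1. Of the pancreas genes, Mir217 had 7 counts in replicate 2 and 3 in replicate 1, Mir216b had 2 and 1, Mir216a had 0 and 1, and Mir216c had none. Mir7b, of neurons and endocrine cells, was at 2047 CPM in replicate 2, against 1651 CPM in replicate 1, far above Mir375. Mir7-2 was at 142 CPM in replicate 2, against 183 CPM in replicate 1, and Mir7-1 at 86.7 and 110 CPM. The 3 Mir7 genes are also known as brain miRNAs. Reads that fit several places are not in their levels, so these levels do not rank the mature RNAs.

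Most markers of the labelled tissue were far above the 10 genes. Of the 10 neuronal marker genes, 7 were at 1666 CPM or more in both libraries, whereas Mir124a-1, Mir124a-2 and Mir124a-3 were at 2.88 CPM or less in both, below the 5 listed genes with counts. The Mir124a levels cover reads counted at each gene, without those that fit several places. They do not give the amount of mature RNA in the tissue. Together the neuronal markers summed to 8.4% of the counts in replicate 2 and 10.7% in replicate 1. Mir127 alone had a level of 31736 CPM in replicate 2, against 40253 CPM in replicate 1. The sum over 3 vessel wall markers was 38353 CPM in replicate 2, against 29696 CPM in replicate 1. Reads that were not mapped made up 11.2% in replicate 2 and 29.0% in replicate 1, and reads that fit several places 47.9% and 36.2%.

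**Figure D4:**
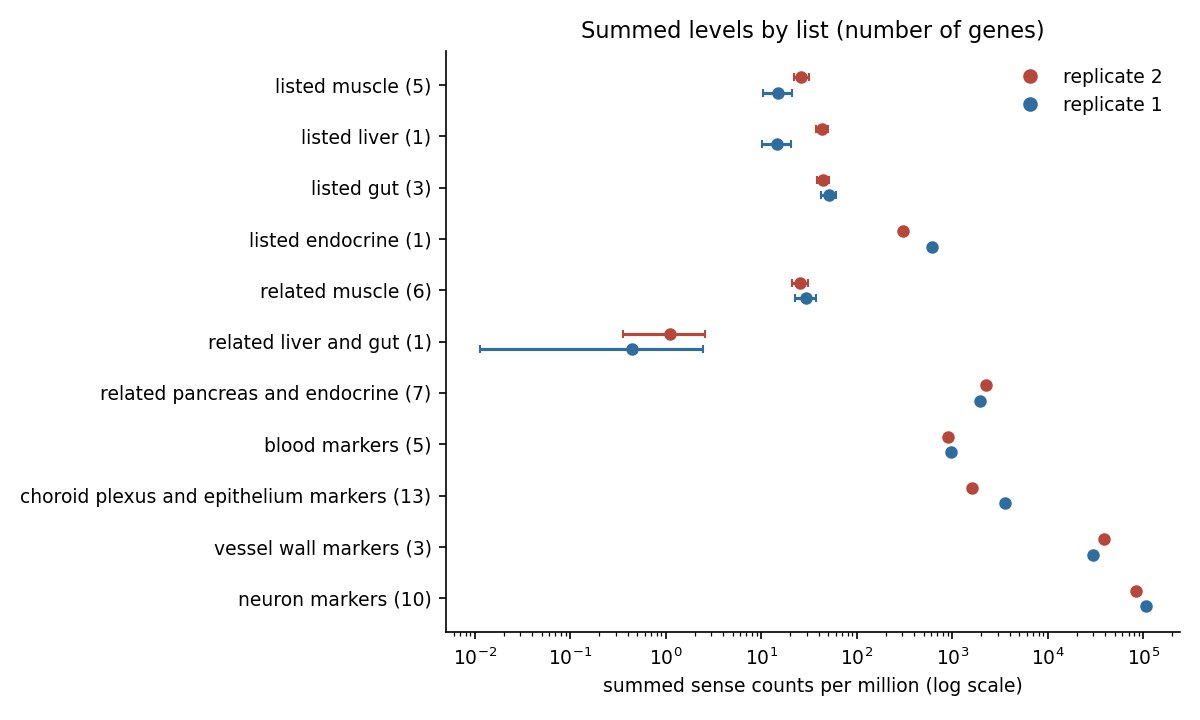
Summed level of each group of genes (horizontal axis, CPM, log scale) in replicate 2 and replicate 1, with exact 95% Poisson intervals; numbers of genes are in parentheses. The listed muscle, liver and gut genes each summed to between 14.6 and 51.0 CPM, Mir375 alone to 308 and 613 CPM, and the neuronal markers to 83984 and 107344 CPM.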

How the data were processed

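The authors deposited 1 table of raw read counts per miRNA gene for each library, with an unstranded, a sense and an antisense column after 4 rows of totals; replicates were not pooled. README texts deposited with the counts name mm10 as the assembly and GENCODE M21 as the annotation. The names of the aligner and counter were not given in the sources used here. Each of the 2202 gene IDs was named from GENCODE M21, which also gave positions and hairpins. The rows of totals stayed out of library sizes and tests. They held 62.8% of the reads in replicate 2 and 69.8% in replicate 1.

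Sense counts were scaled to CPM. The exact conditional binomial test (SciPy 1.17.1) ran over all genes at a mean of 1 CPM or more, and was tested on simulated data. Log2 ratios used a pseudocount of 0.5 counts and were computed from the deposited counts. edgeR 4.0.16 gave TMM factors and exactTest, with 1 common dispersion from an intercept-only fit, since the quasi-likelihood test needs replicates within each side. DESeq2 1.42.0 gave size factors. Python 3.11.15, R 4.3.3 and matplotlib 3.10.9 were used. Alternatives were the counting column, the library size, the scaling, the filter, the pseudocount, the level threshold and each library alone.

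The 10 genes, the related genes and the marker lists were chosen with earlier results of these data known. Named genes are the 10, the 2 nearest genes of each of the 5 with counts, listed related and marker genes with counts, and hairpins within 10000 bases on the same strand. Reads amplified by PCR do not count molecules one by one, and the intervals and limits leave that error out.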

Additional observations from a re-analysis of the deposited data

Results flagged for a closer look

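The antisense column, which the levels do not use, held counts at Mir1a-2 above the set limit of 3 counts: 12 in replicate 2 and 8 in replicate 1. There are no control samples to set them against. Mir1b is annotated over the same 72 bases on that strand and has the same numbers as sense counts.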

How the results depend on the processing

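Of the 10 genes, 5 were at or above 1 CPM in both libraries, and the number was 5 under all 6 alternatives, which were the unstranded column, all reads as the library size, each library alone and the limits of 10 CPM and of any count. With all reads as the library size the summed level of the 10 genes was 183 CPM. With the unstranded column it was 610 CPM, and by single libraries it ran from 422 to 694 CPM. Genes called between the libraries numbered 53 with a filter at a mean of 10 CPM, where fewer genes were tested, and 3 with edgeR's exactTest, against 87 as tested. Genes at 2-fold or more numbered 53 with that filter, 334 with no filter and 68 with all reads as the library size, against 128. The log2 ratios of Mir122, Mir206 and Mir375 kept their direction and an adjusted p under 0.05 under 5 alternatives. Among these, the change of pseudocount does not enter the binomial test, so it could not alter the p. Under exactTest, an alternative chosen for these genes after seeing the data, they had an adjusted p of 1. Mir206 was above 2-fold, and so would be called, with all reads as the library size (2.15-fold). The ratio of Mir194-2 was not past the threshold and lay on either side of 0 (log2, -0.03 to 0.28). Mir194-1 had 0.366 CPM in the unstranded column, from antisense counts. For the genes at 0, depth limits the reads counted at the gene. By the exact Poisson interval that limit was 0.816 CPM in replicate 2 and 1.64 CPM in replicate 1. Depth sets no limit on a mature RNA held by more than 1 hairpin, such as mmu-miR-194-5p. Among the mature RNAs examined, both of Mir133b, the 5′ arm of Mir1a-1 and mmu-miR-194-1-3p were each found whole in 1 hairpin only. Places outside the miRNA hairpins were not searched for them. The counts of epithelial markers under other scalings and their sum without Mir34c were chosen after seeing the data. No paired analysis was possible because the series has 1 group.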
